A study of Homo sapiens and Mus musculus with 66 samples.

Results

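The globin genes encode the protein chains of hemoglobin, the oxygen carrier of red blood cells. The 10 human genes described here were chosen by name and not by a measured value, although earlier results of these data were known. They are 10 of the 20155 protein-coding genes annotated on chromosomes 1 to 22, X and Y. The beta-like group has 5 genes near the short-arm end of chromosome 11, and the alpha-like group has 5 genes near the short-arm end of chromosome 16. The question for each gene was whether it lay inside chromatin at the nuclear lamina (NL), in K562 cells and in HCT116 cells.

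Lamin-B1 cTSA-seq was used in the study to map this chromatin. An antibody to lamin-B1 brings a peroxidase to the NL, the peroxidase deposits biotin on nearby chromatin, and the biotinylated fragments are pulled down with streptavidin (StrePD) and sequenced beside an input library. Regions of strong signal were deposited as 1 list per condition, in windows of 100 kb on hg19, with a start and an end for each region and without a signal or a read count. The depth behind a region is therefore unknown, and each list stands for its condition as a whole, without separate replicates. Neither an error between replicates nor a test can therefore be given for any value below.

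K562 is a human leukemia cell line with erythroid character, and asynchronous untreated cells of it were used, with 2 replicates in the labels. HCT116 is a human colorectal cancer line that does not belong to the blood lineage. The HCT116 lists are those of asynchronous bulk cells, of 1000000, 200000 and 50000 cells, of cells sorted 90 min (90m G1) and 180 min (180m G1) after release from nocodazole, a mitotic blocker, given for 16 h by the labels and for somewhat longer by the Methods, and of unblocked cells sorted by cell cycle stage (G1, S or G2). Together these are 10 lists. They cover between 17.0% of the genome for 90m G1 and 39.6% for K562, with 26.9% for HCT116 bulk and 20.0% to 22.8% for the other 7 HCT116 lists. In K562, 4 further lists were used, namely the regions called from published TSA-seq data, the regions shared by cTSA-seq and TSA-seq, the regions of cTSA-seq only, and the nonLAD regions, which were in the depleted state in both methods. RNA was not analysed here, so that no globin expression in either line stands beside these values.

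Hemoglobin is built from a pair of alpha-like and a pair of beta-like chains. The genes of each group are arranged along the chromosome roughly in the order in which they are used in development, from embryonic to fetal and adult, and each group is under the control of distant enhancers, which lie upstream of HBE1 for the beta group and within introns of the neighbouring gene NPRL3 for the alpha group. Chromatin at the NL is in general gene-poor, rich in A and T and low in transcription, and K562 cells are known for making embryonic and fetal globins, whereas colorectal cells are not known for making them.

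Promoter sequences are shown as examples of how unlike the base composition at the 2 loci is. The RefSeq promoter table (GRCh38.p14) matched 2 of the 10 genes by symbol, HBD of the beta group and HBM of the alpha group, and the genes without an entry were HBB, HBG1, HBG2, HBE1, HBZ, HBA2, HBA1 and HBQ1. Both are shown 5′ to 3′ on the strand of the gene, as bases 250 to 48 before the start of HBD (chr11:5234531-5234733, minus strand) and bases 250 to 1 before the start of HBM (chr16:165728-165977, plus strand). The last 47 bases before the start of HBD are part of the leader of a longer annotated transcript and are not printed. Capitals mark matches, on either strand, to 5 short motifs, which are the CCAAT box, the GATAA motif of GATA factors, the CACCC motif of KLF factors, the ATAAA motif known from globin TATA boxes and the TATAA form of the TATA box.
HBD: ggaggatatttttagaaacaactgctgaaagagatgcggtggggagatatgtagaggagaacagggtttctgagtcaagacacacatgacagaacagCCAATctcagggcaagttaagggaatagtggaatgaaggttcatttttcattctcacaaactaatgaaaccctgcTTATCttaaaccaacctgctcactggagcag
HBM: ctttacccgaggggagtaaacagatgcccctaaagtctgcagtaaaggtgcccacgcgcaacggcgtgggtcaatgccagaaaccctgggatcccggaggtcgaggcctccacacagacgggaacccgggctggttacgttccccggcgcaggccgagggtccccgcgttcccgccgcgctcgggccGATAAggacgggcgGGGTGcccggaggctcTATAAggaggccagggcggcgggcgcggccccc

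Over all 250 bases, the HBD promoter has a GC content of 45.2% and 2 CpG dinucleotides, and the HBM promoter has a GC content of 69.2% and 27 CpG dinucleotides. The median GC content of the 35116 promoters in the table is 58.0%, and 77.6% of them are at or above HBD, whereas 22.5% are at or above HBM. HBD holds CCAAT at bases 153 to 149 before the start, GATAA on the opposite strand at bases 78 to 74 and ATAAA at bases 31 to 27. HBM holds GATAA at bases 63 to 59, CACCC on the opposite strand at bases 49 to 45 and TATAA at bases 33 to 29. Such short motifs are frequent: CCAAT is found on either strand in 32.0% of all promoters of this length, GATAA in 20.4%, CACCC in 54.7%, ATAAA in 32.7% and TATAA in 18.9%. ATAAA and TATAA can overlap each other, and the matches describe the letters only.

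The beta-like genes are all on the minus strand of chromosome 11. HBB (chr11:5246694-5250625) encodes the adult beta chain, HBD (chr11:5253908-5264887) the delta chain of a minor adult hemoglobin, HBG1 (chr11:5269499-5271087) and HBG2 (chr11:5274418-5526835) the fetal gamma chains, and HBE1 (chr11:5289575-5526882) the embryonic epsilon chain. The GENCODE records of HBG2 and HBE1 are 252 kb and 237 kb long because they include long upstream transcripts, while their shortest consensus coding transcripts are 1594 bp and 1601 bp. HBG1 and HBG2 are near-identical copies, which does not affect an overlap of coordinates but can affect how reads were placed. The alpha-like genes are all on the plus strand of chromosome 16. HBZ (chr16:192727-204502) encodes the embryonic zeta chain, HBM (chr16:203891-216763) the mu chain, HBA2 (chr16:222875-223709) and HBA1 (chr16:226679-227521) the alpha chains of fetal and adult hemoglobin, and HBQ1 (chr16:230458-231178) the theta chain. Measured by their shortest coding transcripts, all 5 beta-like genes lie in 1 window of 100 kb (chr11:5200001-5300000) and all 5 alpha-like genes in another (chr16:200001-300000). The 10 genes therefore give 2 positions, not 10 independent measurements.

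No globin gene lay inside a called region in either cell line. In K562, 0% of the gene body of each of the 10 genes was inside cTSA-seq regions, beside 11% of all protein-coding genes that were inside by the rule that at least 80% of the gene is in regions. In HCT116 bulk cells the value was again 0% for each of the 10 genes, beside 11.1% of all genes. The embryonic genes HBE1 and HBZ, the fetal genes HBG1 and HBG2 and the adult gene HBB had this same value in both lines. With any overlap counted, which 12.6% of all genes had in K562 and 12.4% in HCT116 bulk, the count of globin genes was also 0 in both.

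The other HCT116 lists gave the same value for every globin gene. It was 0% with 1000000 cells, where 4.89% of all genes were inside, 0% with 200000 cells (5.09% of all genes) and 0% with 50000 cells (5.98%). It was 0% in 90m G1 (17.2%), 180m G1 (5.3%), G1 (4.81%), S (5.38%) and G2 (4.55%). The list that takes in the most genes, 90m G1, thus held none of the globin genes either. Being outside every list is common, since 67.5% of all protein-coding genes overlapped no region in any of the 10 lists, and 32.5% overlapped at least 1. Of all genes, 81.7% were inside in neither K562 nor HCT116 bulk, as the globin genes were, 3.83% were inside in both, 7.22% in K562 only and 7.26% in HCT116 bulk only. The count of globin genes is near this background and does not set them apart.

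The groups differed in the remaining K562 lists. All 5 alpha-like genes were inside the nonLAD regions over 100% of their length, a list that holds 54.6% of all genes, and all 5 beta-like genes had 0% there. The beta-like genes were also outside the regions of published TSA-seq (9.21% of all genes), outside the shared regions (6.78%) and outside the cTSA-seq only regions (2.25%), as were the alpha-like genes. The beta-like genes therefore stood in neither the called nor the depleted class of K562, as did 28.9% of all genes. A gene missing from the nonLAD list may still be in the depleted state by 1 of the methods, which the list does not tell.

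The alpha-like genes lay deep in a depleted block. It spans 5.2 Mb from the chromosome end (chr16:1-5200000) and holds all 46 other protein-coding genes within 1 Mb of the group. On the telomere side the nearest of these are NPRL3, 4.05 kb away, MPG, a DNA repair glycosylase, at 56.9 kb, and RHBDF1 at 66.4 kb. On the centromere side they are LUC7L at 7.79 kb, FAM234A at 53.3 kb and RGS11, a regulator of G protein signalling, at 87.1 kb. Each of these 6 genes had 100% of its length in the nonLAD regions and 0% in all 10 lists. Of all protein-coding genes, 23.7% have a span with 1 Mb flanks that is as fully depleted.

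The beta-like genes lay in a gap between K562 classes. The gap, with neither a cTSA-seq region, a TSA-seq region nor a nonLAD region, ran over 2.2 Mb (chr11:4200001-6400000) from the end of a depleted block of 4.2 Mb that starts at the telomere to the start of a depleted block of 300 kb. It contains 83 protein-coding genes, of which 57 are olfactory receptor genes and 5 are the beta-like globin genes. Olfactory receptors are odorant sensors of the nose, and their genes surround the beta-like group. Its span counts 9 of them only because the GENCODE records of HBG2 and HBE1 are long. All 9 lie beyond the shortest coding transcript of HBE1, and none lies between the coding transcripts of the globin genes. Of 938 such stretches, which make up 35.7% of the genome and have a median of 0.8 Mb, 96 are at least as long. These stretches include assembly gaps and chromosome Y, where the lack of a call need not describe chromatin. Among windows that are not mostly assembly gap, 30.9% were in none of the K562 classes.

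**Figure D1:**
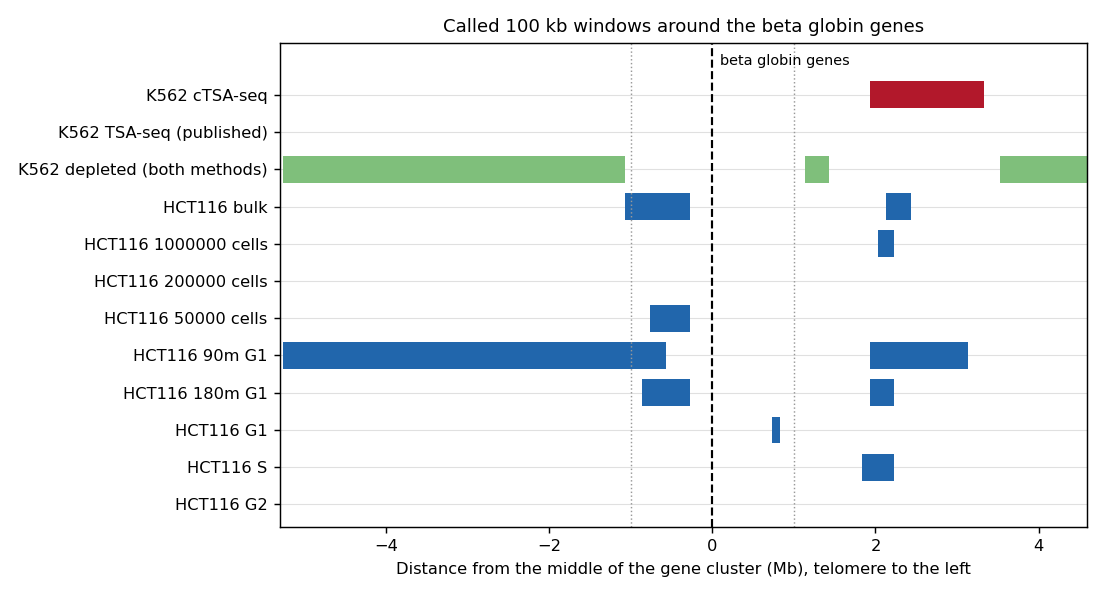
Called 100 kb windows (bars) in each list against the distance in Mb from the middle of the beta-like genes (dashed line), measured on their shortest transcripts, with dotted lines 1 Mb away. No bar of any list reaches the dashed line, and the HCT116 bulk, 50000-cell and 180m G1 regions share an edge on the telomere side. The K562 rows are empty between the nearest depleted blocks on either side of the genes.

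The flanks of the beta-like group, unlike the genes, differed between the lists of the 2 cell lines. Within 1 Mb of the span, which with its flanks measures 2.28 Mb, K562 cTSA-seq called 0%, and HCT116 bulk called 33.0%, a difference of -33.0 percentage points for K562 minus HCT116. All of this was on the telomere side, where HCT116 bulk called 75.3% of the flank and K562 0%, while on the centromere side both called 0%. The HCT116 region (chr11:4200001-5000000) is 800 kb long and ends 247 kb from the genes, and its start is the same window edge at which the depleted block of K562 ends.

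This difference was present with some HCT116 lists and absent with others. The telomere-side flank was called over 50.0% of its length with 50000 cells, over 60.0% in 180m G1 and over 45.3% in 90m G1. It was called over 0% with 1000000 cells and with 200000 cells, and over 0% in the G1, S or G2 lists. Of the 9 HCT116 lists, 4 therefore held this flank in part and 5 did not, and without replicate lists it cannot be said whether bulk and 1000000-cell HCT116 differ beyond their error. The labels give 1 StrePD library for 1000000 cells and 2 for bulk.

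Shares of this size are frequent. In HCT116 bulk, 20.2% of all protein-coding genes have a span with 1 Mb flanks that is called at least as much as that of the beta-like group, and 63.5% have none called. Among the 11931 genes whose flanks, like those of the beta-like group, held no K562 region, 10.2% reached its share in HCT116 bulk and 78% had none. A difference of K562 minus HCT116 bulk at or below that of the beta-like group was found for 8.71% of genes. The shares at or above the beta-like group were 19.7% of genes with 50000 cells, 13.8% in 180m G1 and 23.5% in 90m G1.

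The bulk region near the beta-like genes was set beside all windows called in HCT116 bulk. Its 8 windows were called in 0 of 8 cases with 1000000 cells, 200000 cells, G1, S and G2, and all 8 were in none of these 5 lists, which is true of 15.2% of the 8304 windows called in HCT116 bulk. By list, 71.4% of bulk windows were called with 1000000 cells, 73.5% with 200000 cells, and of the sorted cells 71.8% in G1, 76.0% in S, and 70.4% in the G2 list. With 50000 cells 5 of the 8 were called (77.8% of bulk windows), in 180m G1 6 of 8 (65.8%) and in 90m G1 5 of 8 (36.6%). K562 called 0 of the 8, beside 71.1% of all bulk windows. The 8 windows are neighbours and make up 1 region, so that these counts are a description of 1 event.

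On the centromere side of the beta-like genes the lists held little. The G1 list had a single region of 100 kb (chr11:6000001-6100000), 473 kb from the end of the long HBE1 record. It made up 10.0% of that flank and 4.39% of the span and flanks, and 25.9% of genes have as much in that list. No other of the 10 lists had a region in this flank, and the nonLAD regions of K562 covered 12.7% of it at its far end.

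**Figure D2:**
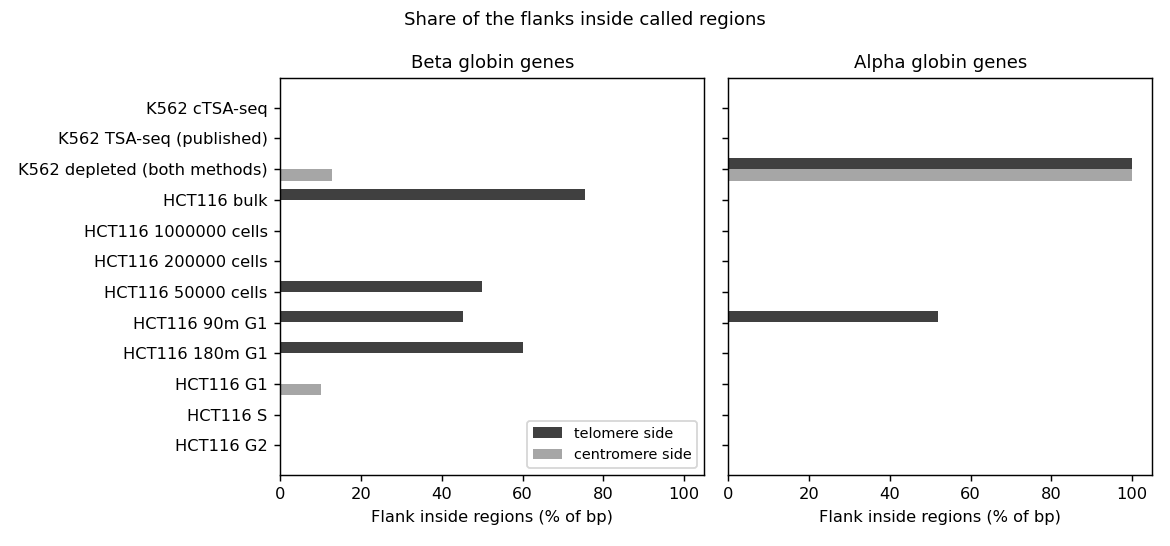
Percent of each 1 Mb flank inside regions (x axis) for every list, with the telomere side in dark and the centromere side in light bars; the alpha telomere side is cut to 193 kb by the chromosome end. The beta telomere side is filled in 4 HCT116 lists and in no K562 list, and the alpha flanks are filled in the K562 depleted list and, at the chromosome end, in 90m G1.

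The flanks of the alpha-like group were uncalled in both lines. The span with its flanks is 1.23 Mb, because the chromosome end cuts the telomere side to 193 kb, of which 60.0 kb is an assembly gap. K562 and HCT116 bulk called 0% of it, and the difference between them was 0 percentage points. Among the 10 lists only 90m G1 held a region there, the first window of the chromosome (chr16:1-100000), which is 92.7 kb from HBZ and made up 51.9% of the telomere side and 8.12% of the whole, gap included. With the gap left out of both the region and the whole, it made up 3.42%. Values at least as high were found for 26.6% of genes in 90m G1. Of the 6 genes named beside the group, none was touched, and POLR3K, a subunit of RNA polymerase III at 89.1 kb, was 49.9% inside.

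The 90m G1 list calls many chromosome ends, so the position of both groups was compared with other arms. At the same distance from the end as the window of the alpha-like genes, 25 of 42 other chromosome arm ends (59.5%) were called in 90m G1, and the window of the alpha-like genes was not. In HCT116 bulk 12 of 42 were called there and in K562 1 of 42. At the distance of the window of the beta-like genes, 26 of 42 ends (61.9%) were called in 90m G1, 21 of 42 in HCT116 bulk and 14 of 42 in K562, and that of the beta-like genes was not called in any of the 10 lists. In 90m G1 the terminal region of chromosome 11 ran from the telomere to chr11:4700000, a length of 4.7 Mb, and stopped 547 kb before HBB.

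**Figure D3:**
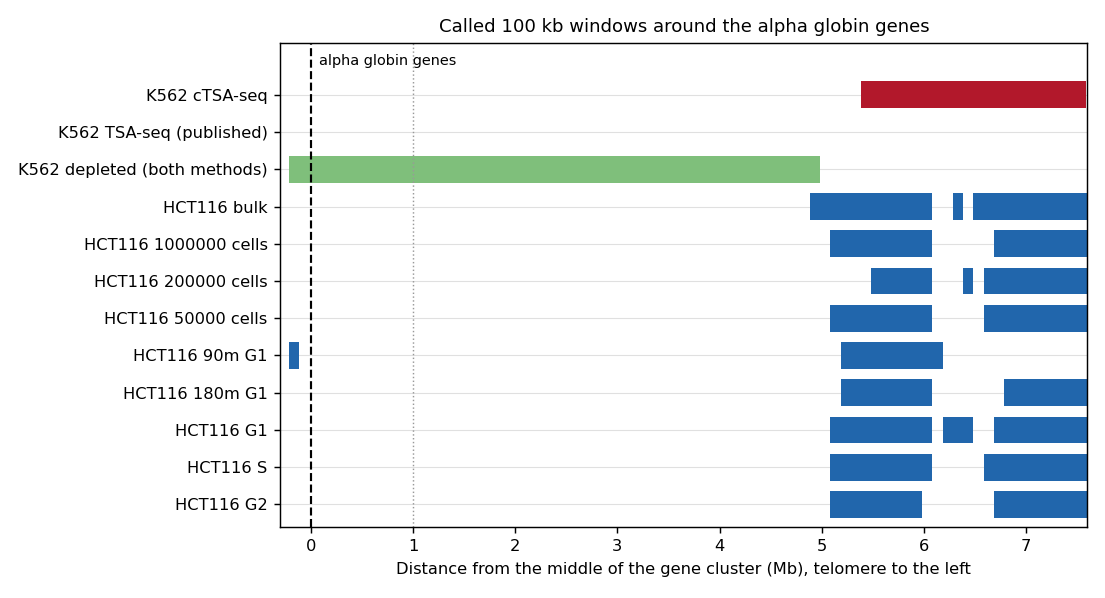
Called 100 kb windows (bars) in each list against the distance in Mb from the middle of the alpha-like genes (dashed line), with a dotted line 1 Mb away. The genes lie in the depleted block of 5.2 Mb, and the first regions toward the centromere begin at about the same place in all 10 lists.

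The nearest region was farther from the alpha-like than from the beta-like genes in K562. In K562 it was 5.37 Mb from the alpha-like group (chr16:5600001-7800000) and 1.67 Mb from the beta-like group (chr11:7200001-8600000), and both regions are in the list of cTSA-seq only. Distances are taken from the ends of the gene records. For the beta-like group on the centromere side this is the end of the long HBE1 record, so its coding transcripts lie farther away. By published TSA-seq the nearest regions were 33.8 Mb and 15.2 Mb away. The 2 methods in K562 therefore gave the same 0% at the genes and very different distances around them.

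In HCT116 the edge on the centromere side of the alpha-like genes was much the same in every list. The first region there began between chr16:5100001 and chr16:5700001, with the same start, 5300001, in 5 of the 10 lists, and lay between 4.87 Mb (bulk) and 5.47 Mb (200000 cells) away. Around the beta-like genes the nearest region varied far more. It was 247 kb away in bulk, 50000 cells and 180m G1, at the same edge on the telomere side in all of them, 473 kb away in G1 and 547 kb away in 90m G1. It was 1.57 Mb away in S, 1.77 Mb with 1000000 cells, 10.2 Mb in G2 and 15.1 Mb with 200000 cells, always on the centromere side.

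**Figure D4:**
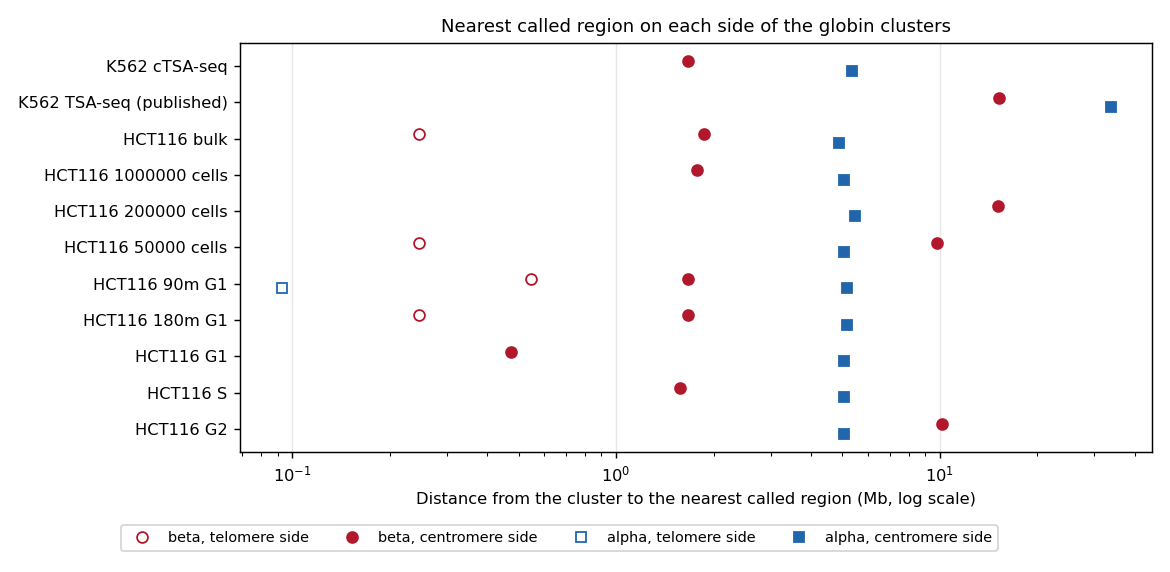
Distance in Mb on a log scale from each globin group to the nearest called region on its telomere side (open symbols) and its centromere side (filled symbols) in every list, with circles for beta and squares for alpha. Distances start at the ends of the gene records, including the long HBE1 record. The filled squares of the 10 lists line up between 4.87 and 5.47 Mb, and their circles spread from 0.247 to 15.1 Mb.

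Genes next to the beta-like group were outside the regions too. On the telomere side OR51V1 at 24.8 kb, OR52A1 at 70.7 kb and OR52A5 at 87.1 kb, which are olfactory receptor genes, had 0% in all 10 lists. On the centromere side UBQLNL at 8.74 kb and the olfactory receptor gene OR52H1 at 38.8 kb had 0% in all 10 lists as well. Distances on this side start at the end of the long HBE1 record (chr11:5526882), not at its coding transcript. The 9 olfactory receptor genes within the span lie nearer to the coding transcripts and were also outside all 10 lists.

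Farther out on the telomere side, genes were inside in HCT116 bulk and outside in K562. Of the 34 genes of this flank, 27 were inside in HCT116 bulk and 0 in K562, among them 20 of its 27 olfactory receptor genes and 7 of 7 others. The 10 nearest of the 27 were MMP26, a secreted matrix protease, with 95.3% of its length inside, and OR51A2, OR51A4, OR51G1, OR51G2, OR51A7, OR51T1, OR51S1, OR51F2 and OR52R1, each with 100%. These 10 lie between 233 kb and 421 kb from HBB, and all of them had the same values with 50000 cells and in 180m G1 and 0% in the other lists. Since the genes share 1 region, they are 1 observation. The whole flank had 20 genes inside with 50000 cells, 22 in 180m G1 and 14 in 90m G1, and in the last of these they were 8 olfactory receptor genes and 6 others.

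On the centromere side 3 of 41 genes were inside in the G1 list, namely the olfactory receptor genes OR52L1, OR56A4 and OR56A1, and none in the other 9 lists. The nonLAD regions held 8 of the 41, from SMPD1, which encodes acid sphingomyelinase, to DNHD1. Among these is HPX, which encodes hemopexin, the plasma protein that binds free heme, and lies 925 kb from the end of the long HBE1 record. HPX was chosen after its value was seen.

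The olfactory receptor genes around the beta-like group were set beside all olfactory receptor genes. In K562 0 of the 57 near the group were inside, beside 127 of all 414 (30.7%). In HCT116 bulk 20 of the 57 were inside, beside 155 of 414 (37.4%), and with 1000000 cells 0 of 57, beside 196 of 414 (47.3%). In the nonLAD regions none of the 57 was inside, beside 50 of 414 (12.1%). The 57 form a single group of neighbours, and no test was made on them.

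**Figure D5:**
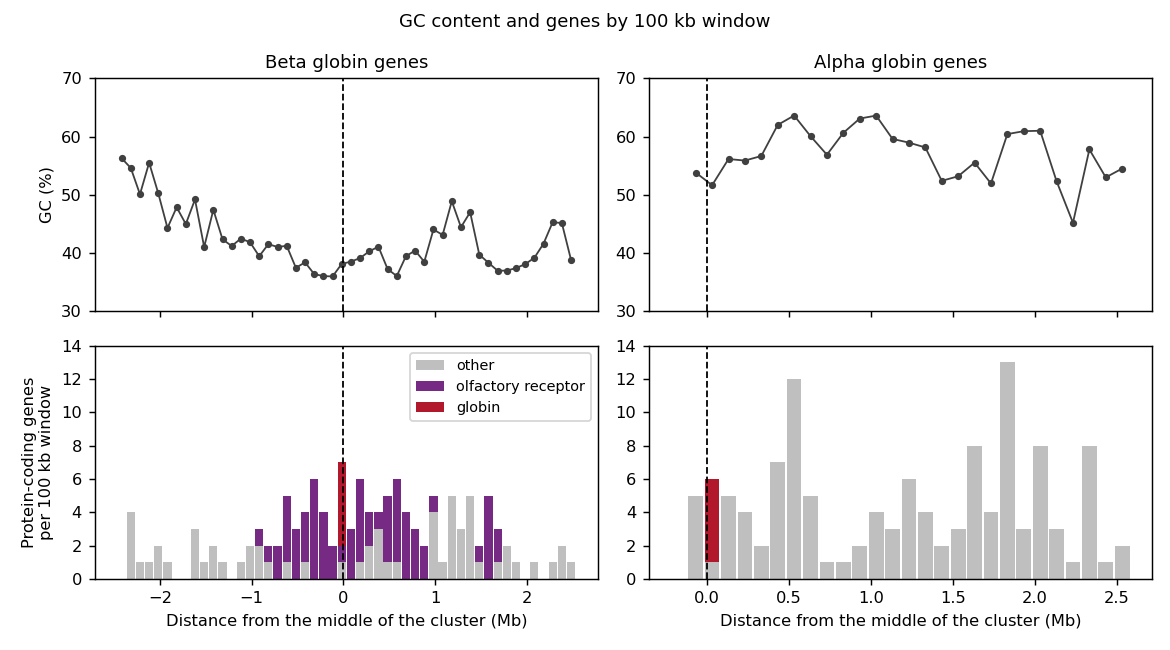
GC content in percent (top) and number of protein-coding genes per 100 kb window (bottom, stacked by type) against the distance in Mb from the middle of each globin group (dashed line). The beta-like genes lie among olfactory receptor genes at a GC content near 38%, and the alpha-like genes lie in a stretch mostly above 50% with no olfactory receptor gene nearby.

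Base composition differed between the groups. The window of the beta-like genes has a GC content of 38.2%, and 65.2% of the 28655 windows of the genome are at or above it. That of the alpha-like genes has 51.7%, which 4.08% of windows reach. The median was 37.4% for windows called in K562, 38.7% for windows called in HCT116 bulk, 46.0% for nonLAD windows and 41.0% for windows in none of the K562 classes. By GC content the window of the beta-like genes is thus near the called windows of both lines, in which it is not. Gene density was alike, at 39.9 protein-coding genes per Mb over the span and flanks of the beta-like group and 41.4 for the alpha-like group, although 57 of the 91 genes were olfactory receptor genes in the first and 0 of 51 in the second. The part of base composition in the calls was not tested.

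Genes with a like pattern over the 10 lists were sought by the mean absolute difference in percent of span and flanks called. Nearest to the beta-like group were ENTREP1 with 5.88 percentage points, RRAGC with 5.94, PRAG1 with 6.10, AGO1 with 6.19 and TREML4 with 6.24. All of these had 0% in K562 and between 22.4% and 39.6% in HCT116 bulk, but they were chosen on these same lists. Elsewhere they were less alike. In 180m G1, where the beta-like group had 26.3%, ENTREP1 had 14.5% and the others 0%. With 50000 cells, where the beta-like group had 21.9%, the highest was 9.52% for AGO1. For the alpha-like group MED18, SELENOI, ABCB9, PDIK1L and AANAT differed by 0.0027 to 0.012 percentage points on average, with 0% in all lists but 90m G1.

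A list of 24 genes was also placed on the regions. It holds genes listed as regulators of the globin genes, enzymes of heme synthesis, a chaperone and globin genes outside the 2 groups. Of the 24, 1 was inside in K562 (11% of all protein-coding genes), 2 in HCT116 bulk (11.1%), 1 in 90m G1 (17.2%) and none in the other lists (4.55% to 5.98%). At this size, these counts do not set the list apart from all genes. BCL11A, the repressor of the fetal gamma genes, was 100% inside in both K562 and HCT116 bulk and 0% in the 8 other lists. In K562 this call was by cTSA-seq, and the published TSA-seq regions held 0% of the gene. FECH, the enzyme that inserts iron into heme, was 100% inside in HCT116 bulk only, and in K562 it was 100% inside the nonLAD regions, and it was the only one of the 24 that differed between the K562 and HCT116 bulk lists. ALAD, an early enzyme of heme synthesis, was 100% inside in 90m G1.

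In the nonLAD regions of K562 16 of the 24 were inside, beside 54.6% of all genes. They were 7 of the 12 genes listed as regulators, including the erythroid transcription factors GATA1, KLF1 and TAL1. The rest were 5 of 8 enzymes of heme synthesis, the alpha chain chaperone gene AHSP, and all 3 globin genes outside the groups. These 3, MB, CYGB and NGB, encode myoglobin, cytoglobin and neuroglobin. LMO2, also listed as a regulator, had 40.7% of its length there and did not count as inside. MYB, HBS1L and LIN28B, from the same group of the list, had 0% in the cTSA-seq, TSA-seq and nonLAD regions of K562, like the beta-like genes. So did ALAS2, the erythroid first enzyme of heme synthesis, UROS and CPOX.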

How the data were processed

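Per the Methods and the submitters' processing notes, the authors aligned reads to hg19 with Bowtie2 2.3.2, counted them in windows with bedtools 2.26.0, normalised StrePD and input for depth, expressed the log2 of their ratio as a z-score, fitted a 3-state hidden Markov model to find regions, and intersected replicates. The 90m and 180m G1 lists, unlike the other HCT116 lists, are not named consensus lists. The deposited values used here are region starts and ends in bp, a unit of other kind with no signal, so depth and replicate spread are unknown and no test was made. Where a region ended off the 100 kb grid (36 cases), the end was that of the hg19 chromosome.

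Gene models were those of GENCODE release 44 on hg19, with the gene record as the gene body and flanks of 1 Mb. Spans, flanks and distances follow these records, so the long HBE1 record sets the centromere side of the beta-like group. A gene counted as inside with at least 80% of its length in regions, and a window with at least 50%. Named were the members, the 3 nearest genes on each side, the 10 nearest flank genes that differed between K562 and HCT116 bulk, pathway genes with an overlap or a difference between these lists, and the 5 genes with the most similar flank pattern. One gene that this rule names is not reported here. Pathway genes named only for their place in the nonLAD list, POLR3K, the G1 list genes, SMPD1, DNHD1 and HPX were named after their values were seen. The members and lists were chosen with earlier results of these data known. The alternatives were other gene shares, 5 kb of padding, flanks of 500 kb and 2 Mb, regions of at least 200 kb, gaps of 100 kb joined, assembly gaps left out and other lists. The shortest coding transcripts were added after the data were examined. Overlap arithmetic was tested on simulated regions. Python 3.11.15, numpy 2.4.6, scipy 1.17.1 and matplotlib 3.10.9 were used. Mouse tissue, hTERT-RPE1 and SLAM-seq samples were not analysed here.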

Additional observations from a re-analysis of the deposited data

How the results depend on the processing

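Of 198 alternative values, 189 kept their value within the yardstick, 9 moved and 0 reversed. Many of the 198 start from 0%, which stricter settings cannot change, so this count says little about robustness. The beta-like difference of K562 minus HCT116 bulk moved with flanks of 2 Mb. It also moved with 1000000 cells, 200000 cells, G1, S or G2 in place of bulk. The yardstick was the exact 95% binomial interval over 100 kb windows, whose neighbours are not independent, and values within it can still differ widely. The 0% of every globin gene was unchanged with any overlap, the whole gene, 5 kb of padding and the shortest transcripts. These settings could not have given another value. A gene body with 0% leaves nothing for the other shares, and the nearest region was 92.7 kb away, beyond the padding. The K562 minus HCT116 difference for the beta-like group rested on the HCT116 list: it was 0 percentage points with 1000000 cells, 200000 cells, S or G2 in place of bulk, -4.39 with G1 and -21.9 with 50000 cells. It was -19.8 with flanks of 500 kb and -14.0 with flanks of 2 Mb, where HCT116 bulk called 21.7% and K562 7.64%. The 90m G1 share of the beta-like group was 0% with flanks of 500 kb and 41.6% with flanks of 2 Mb. That of the alpha-like group was 3.42% with assembly gaps left out, 13.7% with flanks of 500 kb and 4.48% with flanks of 2 Mb. For the beta-like group, flanks of 2 Mb gave 11.7% with 50000 cells, 4.67% with 1000000 cells, 9.35% in S and 2.34% in G1, and flanks of 500 kb gave 2.10% in G1. With regions of at least 200 kb only, the G1 share of the beta-like group and the 90m G1 share of the alpha-like group were 0%, since both come from single windows. The cause of the difference between HCT116 lists was not tested. No paired analysis was possible because each list stands for a condition without separate replicates, and for the same reason no replicate could be left out. Depth limits are unknown, and windows of 100 kb cannot separate the globin genes of a group.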
